A study of Mus musculus with 26 samples.

Results

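The genes described here are Gata1, Gata2 and Gata3, the GATA zinc finger transcription factors of blood cells, and 7 proteins that work in complexes with them: Zfpm1, Tal1, Lyl1, Lmo2, Lmo4, Ldb1 and Cbfa2t3. They were taken by name, as 10 of the 19938 genes measured, across 8 sorted populations of mouse blood stem and progenitor cells. Each was read by the probe set of its symbol with the highest mean over the 26 arrays. All 10 were measured, and Cbfa2t3 alone had 2 probe sets.

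GATA factors are named for the DNA letters they bind and switch on genes of particular blood lineages. Gata2 acts in stem cells and early progenitors and in mast cells, Gata1 in red cells, megakaryocytes, mast cells, basophils and eosinophils, and Gata3 in T cells and innate lymphoid cells. Zfpm1, also called FOG1, binds Gata1 directly and recruits repressors or activators. The basic helix-loop-helix factor Tal1, or its close relative Lyl1, pairs with an E protein on E-box letters. The LIM-only protein Lmo2 bridges that pair to a GATA factor, and Ldb1, which binds LIM domains and itself, holds such complexes together. Lmo4 is another LIM-only protein that binds Ldb1, and Cbfa2t3, also called ETO2, is a corepressor within the complex.

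All samples came from the bone marrow of mice aged 8 to 15 weeks with genotype Gata1-EGFP Tg/+, so that every group, controls included, carries the fluorescent (GFP) reporter transgene of Gata1. The regulatory DNA that drives the reporter is not given in the sources used here, nor is the number of animals behind a sample. Haematopoietic stem cells (HSC GFP-, 3 arrays) were sorted as lineage-negative, Kit+, Sca1+, CD150+, Flt3- cells without reporter signal, and lymphoid-primed multipotent progenitors (LMPP, 4 arrays) as their CD150-, Flt3 high counterparts, also without reporter signal. Common lymphoid progenitors (CLP, 3 arrays) were lineage-negative, B220-, Sca1 low, Kit low, Flt3+ and IL-7Ra+. The other gates were all lineage-negative, Kit+, Sca1- and CD41-. Of these, granulocyte-macrophage progenitors carried the Fc gamma receptor and were split into GMP GFP- (4 arrays) and GMP GFP+ (3 arrays). Pre-granulocyte-macrophage progenitors lacked that receptor, CD150 and CD105 and were split into PreGM GFP- and PreGM GFP+ (3 arrays each). Pre-megakaryocyte-erythroid progenitors (PreMegE, 3 arrays) differed from PreGM by carrying CD150, and their gate did not use the reporter, nor did that of CLP.

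Each array gives a log2 signal per probe set, on which a difference of 1 is a 2-fold difference in signal. Array medians lay between 6.42 and 6.70, and the median of all values was 6.61. Where the mean of a gene in a group is under 6.61, its signal is called below the median, and differences from it may not equal those of the RNA. Residual spread over all genes was widest in PreGM GFP- arrays 2 and 1 (SD 0.316 and 0.289), and lay between 0.174 and 0.287 in the others. Transcripts of sorting antigens were set against the gates. Mean Flt3 was 11.44 in LMPP and 8.18 in HSC GFP-, mean Slamf1, which encodes CD150, was 7.17 in PreMegE, 7.15 in HSC GFP- and at most 5.85 in the other groups. Mean Fcgr3 was 9.52 and 9.78 in the GMP groups and at most 7.49 elsewhere. Within gates that lacked CD41, its gene Itga2b rose with the reporter (by 1.13 in PreGM and 1.44 in GMP), and within the PreGM gate, which lacked CD150, Slamf1 rose by 0.98 (adjusted p = 0.0427). Whether the arrays of a group stem from different animals is not in the labels, and the p-values rest on the spread among these arrays, part or all of which may be technical. In sorted bulk samples a smaller share of cells that express a gene and less RNA in each of them cannot be told apart.

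Before the signals, the DNA in front of these genes shows where the letters read by the complex itself occur. RefSeq start sites (GRCm38.p6) gave 16 windows of 300 bases, from 250 before to 50 after a start, for 9 of the 10 genes; Lmo2 had no entry. GATA words, the letters GATA preceded by A or by T and followed by A or by G on either strand, were present in 4 of 16 windows, 1 each of Gata3, Tal1, Ldb1 and Cbfa2t3, or 25.0% against 29.8% of the 32851 windows of all genes. The E-box CANNTG was in 10 of 16 (62.5%, against 72.3% of all windows) and the letters CCACCC, bound by Kruppel-like factors, in 10 of 16 (62.5%, against 31.5%). Windows 2 and 3 of Lmo4 overlap and both count for the E-box and for CCACCC, so these are not 16 separate stretches of DNA. These shares are descriptions of letters, and a match is not a shown binding site. The sequences below are the 250 bases before a start, in lower case with GATA words and E-boxes in capitals. Gata1 and Gata2 (start 1 of 2) are shown because their signals rose together with the reporter, and neither window shown holds a GATA word. Those of Tal1 (start 1 of 2), Ldb1 (start 3 of 3) and Cbfa2t3 (start 1 of 2) are shown because they hold GATA words in front of genes of the complex.

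Gata1, chrX:7967911-7968160, minus strand: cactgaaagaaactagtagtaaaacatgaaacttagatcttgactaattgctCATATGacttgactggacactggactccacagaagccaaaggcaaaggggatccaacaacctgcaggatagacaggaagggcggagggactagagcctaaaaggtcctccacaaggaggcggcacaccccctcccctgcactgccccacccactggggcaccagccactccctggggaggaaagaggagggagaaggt
Gata2, chr6:88193641-88193890, plus strand: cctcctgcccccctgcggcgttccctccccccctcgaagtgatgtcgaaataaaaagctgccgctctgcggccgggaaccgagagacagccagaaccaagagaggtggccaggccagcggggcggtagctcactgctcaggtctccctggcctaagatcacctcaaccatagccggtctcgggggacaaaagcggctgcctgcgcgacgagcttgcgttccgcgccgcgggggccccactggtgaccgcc
Tal1, chr4:115056176-115056425, plus strand: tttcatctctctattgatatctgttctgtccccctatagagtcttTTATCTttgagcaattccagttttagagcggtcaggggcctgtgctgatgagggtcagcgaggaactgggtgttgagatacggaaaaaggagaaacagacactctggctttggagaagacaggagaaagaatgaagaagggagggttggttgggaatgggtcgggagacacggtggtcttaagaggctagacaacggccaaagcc
Ldb1, chr19:46037071-46037320, minus strand: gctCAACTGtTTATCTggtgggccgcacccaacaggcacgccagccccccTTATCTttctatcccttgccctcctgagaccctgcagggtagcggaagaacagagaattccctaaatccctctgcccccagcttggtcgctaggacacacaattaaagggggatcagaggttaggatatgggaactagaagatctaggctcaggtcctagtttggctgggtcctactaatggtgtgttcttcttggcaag
Cbfa2t3, chr8:122699110-122699359, minus strand: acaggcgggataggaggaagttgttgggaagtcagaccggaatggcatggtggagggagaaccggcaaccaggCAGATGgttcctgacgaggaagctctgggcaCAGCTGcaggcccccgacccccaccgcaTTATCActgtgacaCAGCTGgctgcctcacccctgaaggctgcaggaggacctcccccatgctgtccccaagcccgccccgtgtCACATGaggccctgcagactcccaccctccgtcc

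In the Tal1 window the GATA word begins at position -205 from the start, and in the Ldb1 window the words begin at -240 and -200, the former 1 base from an E-box. The Cbfa2t3 window is the only one of the 16 in which, read on 1 strand, an E-box is followed after 7 to 9 bases by a GATA word (here 8), an arrangement known to be bound by Tal1, Lmo2, Ldb1 and a GATA factor together. That arrangement occurred in 213 of all 32851 windows, or 0.648%.

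**Figure D1:**
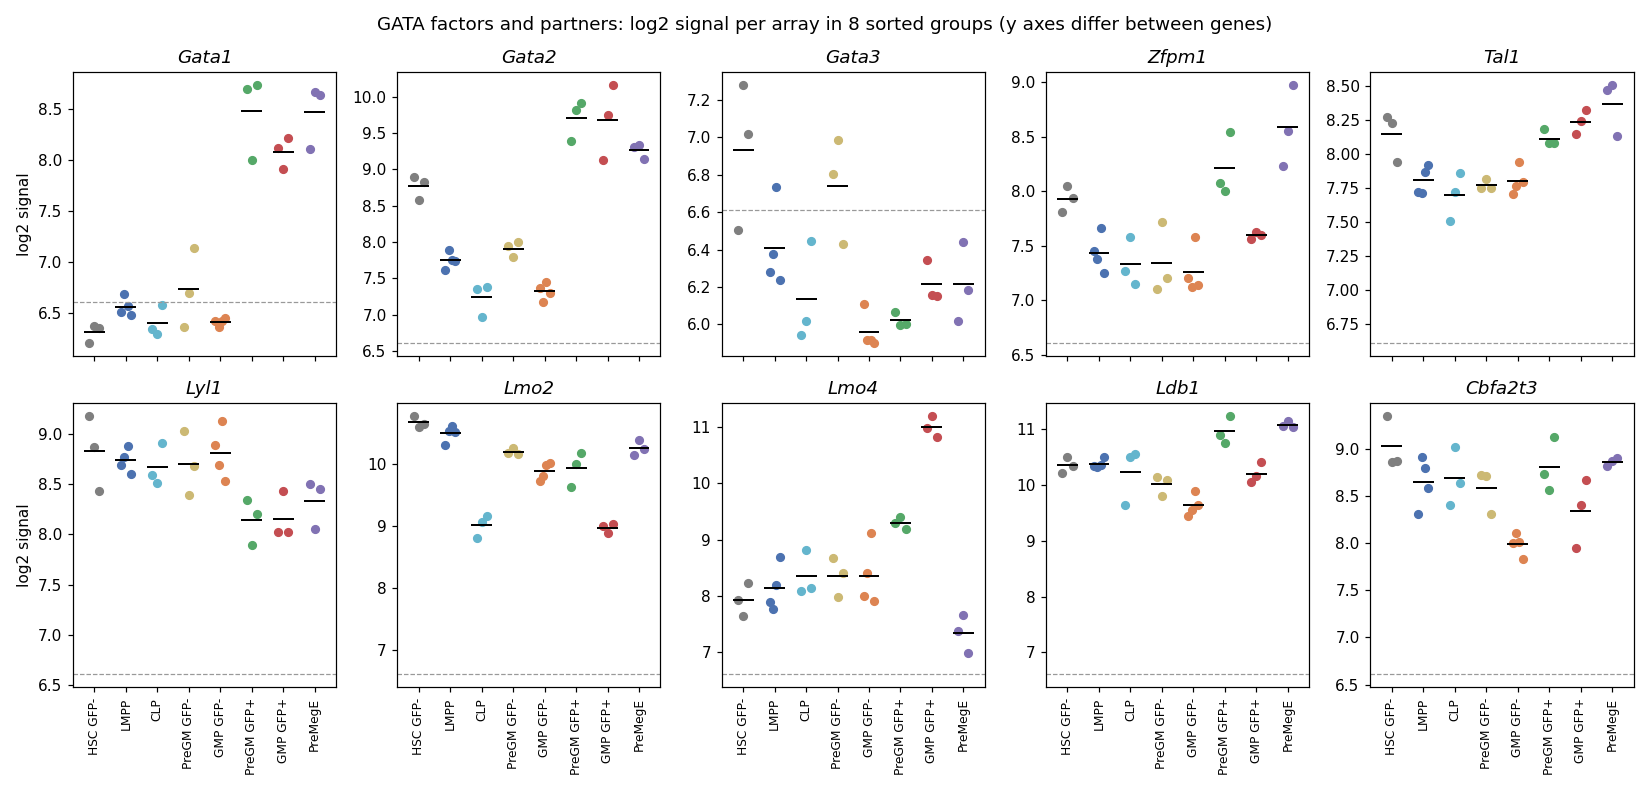
Log2 signal (y axis, scaled separately for each gene) of the 10 genes in each of the 26 arrays (points) of the 8 sorted groups (x axis), with group means as black bars and the median of all values, 6.61, as a dashed line. Gata1 and Gata2 were highest in PreGM GFP+, GMP GFP+ and PreMegE, Lmo4 was highest in GMP GFP+ and lowest in PreMegE, and Lmo2 was lowest in GMP GFP+ and CLP.

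All 10 genes differed over the 8 groups by limma's moderated F test, where 15.2% of all genes did. Among genes with a mean above the median signal in 1 group or more, as all 10 have, the share was 24.1%. The 10 were chosen with earlier results of these data known, and the reporter of Gata1 was used in the sort, so the count is a description. Adjusted p ran from 1.12e-10 for Gata2 to 0.0278 for Lyl1. The call of Lyl1 was lost without GMP GFP+ array 1 (adjusted p = 0.066), GMP GFP+ array 3 (0.0626) or PreGM GFP+ array 2 (0.0642). The range between the highest and the lowest group mean was widest for Lmo4 (3.66), Gata2 (2.47) and Gata1 (2.17) and narrowest for Tal1 (0.67), Lyl1 (0.68) and Gata3 (0.98), all on the log2 scale.

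Gata1, the factor whose reporter was sorted on, split the arrays in 2 blocks. Its log2 signal was 8.70, 8.01 and 8.74 in PreGM GFP+ arrays 1 to 3, 8.10, 8.67 and 8.63 in PreMegE and 8.12, 7.92 and 8.21 in GMP GFP+. In PreGM GFP- it was 6.36, 6.70 and 7.14. All 9 arrays of the former groups lay above all others, and PreGM GFP- array 3 was the highest of the rest. LMPP, GMP GFP-, CLP and HSC GFP- had means of 6.57, 6.42, 6.41 and 6.31, all below the median signal, with single arrays between 6.21 and 6.69. Among the 3 high groups the arrays overlapped, and so did those of most neighbours among the low groups.

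The reporter difference of Gata1 was 1.75 (SE 0.19, adjusted p = 2.36e-06) in PreGM and 1.67 (SE 0.17, adjusted p = 8.58e-07) in GMP, and both comparisons test the sort itself. PreMegE, whose gate did not use the reporter, exceeded HSC GFP- by 2.16 (SE 0.19, adjusted p = 8.57e-08). The HSC GFP- gate excluded cells with reporter signal, so this difference is not free of the sort either. From PreGM GFP+, PreMegE differed by -0.01 (SE 0.19).

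Gata2, the GATA factor of stem cells and early progenitors, followed the same 3 groups but was also raised in stem cells. It was 9.39, 9.81 and 9.92 in PreGM GFP+, 9.13, 9.74 and 10.16 in GMP GFP+ and 9.31, 9.33 and 9.14 in PreMegE. In HSC GFP- it was 8.90, 8.57 and 8.83. These stem cell arrays lay below all 9 arrays of the high groups and above all arrays of the remaining 4. PreGM GFP- arrays had 7.95, 7.79 and 7.99 and LMPP arrays between 7.61 and 7.89, and these overlapped. GMP GFP- (7.18 to 7.44) and CLP (6.96 to 7.39) were lowest and overlapped too. Gata1 was not raised in these stem cells, but they were sorted for lack of its reporter. Gata2 in them stood above 4 groups.

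Gata2 fell from HSC GFP- to LMPP by 1.02 (SE 0.17, adjusted p = 0.0013) and rose with the reporter by 1.80 (SE 0.19, adjusted p = 1.74e-06) in PreGM and by 2.36 (SE 0.17, adjusted p = 3.01e-09) in GMP. The difference between these effects was not called (0.56, adjusted p = 0.63). Between PreMegE and HSC GFP- the difference was 0.49 (adjusted p = 0.201), although all 3 PreMegE arrays were higher.

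Gata3, the T lineage member, had little signal. It was 6.51, 7.28 and 7.02 in HSC GFP- and 6.80, 6.98 and 6.43 in PreGM GFP-, the 2 groups with a mean above the median signal. In GMP GFP- it was 6.11, 5.92, 5.92 and 5.90, in PreGM GFP+ 6.07, 6.0 and 6.0, and in CLP 5.94, 6.02 and 6.45. The HSC and PreGM GFP- arrays overlapped each other and those of LMPP (6.24 to 6.74). In the order of the means each group overlapped the next, and CLP, the lymphoid gate, ranked below 5 of the other 7.

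With the reporter, Gata3 fell by 0.72 in PreGM (SE 0.18, adjusted p = 0.0373), with no overlap of arrays. Leaving out PreGM GFP- array 1 or 2 or any single PreGM GFP+ array ended the call (adjusted p 0.0961 to 0.137), as did fitting the 6 PreGM arrays alone (0.133) or weighting arrays by their spread (0.221). In GMP the reporter difference was 0.26 (adjusted p = 0.372), and the difference between the gates did not pass (0.97, adjusted p = 0.0845), although it did without PreGM GFP- array 3 (1.13, adjusted p = 0.036) and with the 4 groups fitted alone (0.0375). Gata3 also fell from PreGM GFP- to GMP GFP- by 0.78 (SE 0.17, adjusted p = 0.0167), a call lost without PreGM GFP- array 1 (0.0716), PreGM GFP- array 2 (0.14) or GMP GFP- array 2 (0.0501), with these groups fitted alone (0.0574) and with array weights (0.168). Against HSC GFP- it was lower in PreMegE by 0.72 (SE 0.18, adjusted p = 0.0251), and leaving out PreMegE array 1 or 3 or HSC GFP- array 2 or 3 (adjusted p 0.0819 to 0.154) or fitting these groups alone (0.265) ended the call.

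Markers of other cells are given beside Gata3. The mean log2 signal of 6 B cell genes was 6.85 to 7.80 in PreGM GFP- arrays and 6.64 to 6.89 in PreGM GFP+, which overlap, and none of the 6 was called. That of 5 monocyte genes was 9.35 to 9.60 against 6.12 to 6.31, and all 5 fell with the reporter. The 13 T lineage and Gata3-linked genes measured, among them the T cell receptor complex genes Cd3d, Cd3e and Cd3g, had 6.54 to 6.70 in PreGM GFP-, 6.55 to 6.69 in PreGM GFP+ and 6.48 to 6.62 in HSC GFP-. The part of these markers in the Gata3 differences was not tested.

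Zfpm1, the cofactor that binds Gata1, was 8.24, 8.56 and 8.98 in PreMegE and 8.08, 8.0 and 8.55 in PreGM GFP+. HSC GFP- followed with 7.81, 8.05 and 7.94. PreMegE overlapped PreGM GFP+, which overlapped HSC GFP-, and all HSC arrays were above those of GMP GFP+ (7.57, 7.63 and 7.60). From GMP GFP+ downward, LMPP, PreGM GFP-, CLP and GMP GFP- had means of 7.44, 7.34, 7.34 and 7.26 and overlapped. GMP GFP+ thus had a mean near those groups while its Gata1 and Gata2 were high.

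Zfpm1 rose with the reporter in PreGM by 0.87 (SE 0.19, adjusted p = 0.0113). It was no longer called when PreGM GFP- array 1 (adjusted p = 0.0873), PreGM GFP- array 3 (0.0622) or PreGM GFP+ array 3 (0.105) was left out, with the PreGM arrays fitted alone (0.15) or with array weights (0.0742). In GMP the difference was 0.33 (adjusted p = 0.263), and the gates were not shown to differ (adjusted p = 0.666). PreMegE exceeded GMP GFP+ by 0.99 (SE 0.19, adjusted p = 0.00355), a call lost with the arrays of these groups fitted alone (0.0811), and differed from HSC GFP- by 0.66 (adjusted p = 0.0621), a difference called without PreMegE array 1 (0.83, adjusted p = 0.0227), under quantile normalization (0.73, adjusted p = 0.0249), with array weights (0.70, adjusted p = 0.0204) and with the replicate block (0.66, adjusted p = 0.0442).

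The 2 helix-loop-helix genes stayed within narrow ranges, and with the reporter in GMP Tal1 rose and Lyl1 fell. Tal1 was 8.47, 8.51 and 8.13 in PreMegE, 8.14, 8.24 and 8.32 in GMP GFP+, 8.27, 8.23 and 7.94 in HSC GFP- and 8.18, 8.08 and 8.08 in PreGM GFP+. LMPP, GMP GFP-, PreGM GFP- and CLP had means of 7.80, 7.80, 7.77 and 7.69. Each PreGM GFP+ array lay above each LMPP array, and within the high and within the low groups neighbours overlapped. Tal1 rose with the reporter in GMP by 0.43 (SE 0.11, adjusted p = 0.0163). That call was lost without GMP GFP- array 1 (0.0511) or GMP GFP+ array 3 (0.0821). With all arrays kept, it was also lost after each array was centred on its median (0.31, adjusted p = 0.0841) and with a trended, robust variance prior (0.0533). In PreGM the difference was 0.34 (adjusted p = 0.20), with no overlap of arrays.

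Lyl1 was lowest in the 3 groups with high Gata1. It was 8.34, 7.89 and 8.20 in PreGM GFP+, 8.02, 8.43 and 8.02 in GMP GFP+ and 8.50, 8.05 and 8.45 in PreMegE. The means of HSC GFP-, GMP GFP-, LMPP, PreGM GFP- and CLP were 8.82, 8.81, 8.73, 8.70 and 8.67, with overlapping arrays. Lyl1 fell with the reporter in GMP by 0.65 (SE 0.19, adjusted p = 0.0349) and differed in PreGM by -0.55 (adjusted p = 0.233). Leaving out GMP GFP- array 1, 2 or 3 or GMP GFP+ array 1 or 3 ended the GMP call (adjusted p 0.0531 to 0.15), as did quantile normalization (0.151) and the trended, robust prior (0.0519).

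The LIM-only genes set groups with high Gata1 apart from each other. Lmo2, the bridge of the complex, was 9.0, 8.88 and 9.03 in GMP GFP+ and 8.80, 9.06 and 9.15 in CLP. Every other array was at 9.63 or above. HSC GFP- was highest (10.77, 10.59 and 10.63), and LMPP, PreMegE, PreGM GFP-, PreGM GFP+ and GMP GFP- followed with means of 10.49, 10.25, 10.20, 9.93 and 9.88, each overlapping the next. So the groups with the lowest Lmo2 were 1 with high Gata1 and Gata2 and 1 with low levels of both.

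Lmo2 fell with the reporter in GMP by 0.91 (SE 0.12, adjusted p = 2.55e-05) and fell from LMPP to CLP by 1.48 (SE 0.12, adjusted p = 3.97e-08). In PreGM the reporter difference was -0.26 (adjusted p = 0.50), and the difference between the gates did not pass (-0.65, adjusted p = 0.126), although it did without PreGM GFP+ array 1 (-0.80, adjusted p = 0.0237). GMP GFP+ lay below PreGM GFP+ by 0.97 (SE 0.13, adjusted p = 7.85e-05; 0.0543 with these groups fitted alone) and below PreMegE by 1.28 (SE 0.13, adjusted p = 6.71e-07).

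Lmo4, which binds Ldb1 as Lmo2 does, was highest in GMP GFP+, where Lmo2 was low. It was 10.97, 11.19 and 10.83 in GMP GFP+ and 9.30, 9.41 and 9.19 in PreGM GFP+, and no array of either group overlapped another group. PreMegE had the lowest arrays but for overlap with HSC GFP- (7.37, 7.65 and 6.98 against 7.93, 7.64 and 8.23). In between, GMP GFP- (8.0, 8.41, 9.11 and 7.91), PreGM GFP-, CLP and LMPP had means of 8.36, 8.35, 8.35 and 8.14. The 3 groups with high Gata1 thus held the highest 2 and the lowest mean of Lmo4.

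Lmo4 rose with the reporter in GMP by 2.64 (SE 0.26, adjusted p = 4.47e-07). In PreGM it differed by 0.94 (adjusted p = 0.105; 1.02 and 0.0324 under quantile normalization). The effect in GMP exceeded that in PreGM by 1.69 (SE 0.39, adjusted p = 0.0376), the only difference between the gates called among the 10 genes, and the call rested on most arrays: leaving out any 1 array other than GMP GFP- array 3 or PreGM GFP- array 2 ended it (adjusted p 0.0585 to 0.109). It was also lost with centred arrays (0.0762), with array weights (0.182), with the 4 groups fitted alone (0.0559) and with the replicate number as a block (0.0747). PreMegE lay below PreGM GFP+ by 1.96 (SE 0.28, adjusted p = 0.0029; 0.0791 with these groups fitted alone) and below GMP GFP+ by 3.66 (SE 0.28, adjusted p = 9.09e-09). GMP GFP+ exceeded PreGM GFP+ by 1.70 (SE 0.28, adjusted p = 0.00145).

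Ldb1, the scaffold, had high signal in every group. It was 11.06, 11.14 and 11.03 in PreMegE and 10.90, 10.75 and 11.23 in PreGM GFP+, and these 6 arrays lay above all others. LMPP, HSC GFP-, CLP, GMP GFP+ and PreGM GFP- overlapped as neighbours, with means of 10.38, 10.35, 10.24, 10.20 and 10.01, and GMP GFP- was lowest (9.44, 9.56, 9.90 and 9.64). CLP array 1, at 9.64, lay far from CLP arrays 2 and 3 (10.51 and 10.56).

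With the reporter Ldb1 rose by 0.95 in PreGM (SE 0.19, adjusted p = 0.00409; 0.0523 with the PreGM arrays fitted alone and 0.0693 with array weights) and by 0.57 in GMP (SE 0.17, adjusted p = 0.048). The GMP call was lost without any 1 array other than GMP GFP- array 3 (adjusted p 0.0607 to 0.226). With all arrays kept, it was also lost with centred arrays (0.44, adjusted p = 0.148) and with the trended, robust prior (0.057). GMP GFP+ lay below PreGM GFP+ by 0.76 (SE 0.19, adjusted p = 0.0479), a call lost without any 1 of the 6 arrays (0.0534 to 0.321), with these groups fitted alone (0.155), under quantile normalization (0.127) and with the trended, robust prior (0.0605). PreMegE exceeded GMP GFP+ by 0.87 (SE 0.19, adjusted p = 0.00985; 0.0711 without GMP GFP+ array 1 and 0.0516 without PreMegE array 2). Against HSC GFP- it was higher by 0.72 (SE 0.19, adjusted p = 0.0287), lost without any array but HSC GFP- array 2 (0.07 to 0.124) and under quantile normalization (0.0558).

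Cbfa2t3, the corepressor, differed over the 8 groups by the F test and was called in none of the 11 comparisons run, which do not include its highest group against its lowest. It was 9.34, 8.86 and 8.87 in HSC GFP- and lowest in GMP GFP-, at 8.0, 8.11, 8.01 and 7.83. PreMegE, PreGM GFP+, CLP, LMPP, PreGM GFP- and GMP GFP+ lay between, with means of 8.86, 8.80, 8.69, 8.65, 8.58 and 8.34, and every group overlapped the next. The lowest adjusted p was that of GMP GFP- against PreGM GFP- (-0.59, adjusted p = 0.164). With array weights the difference of PreMegE and GMP GFP+ was called (0.67, adjusted p = 0.0433; 0.52 and 0.339 without weights).

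**Figure D2:**
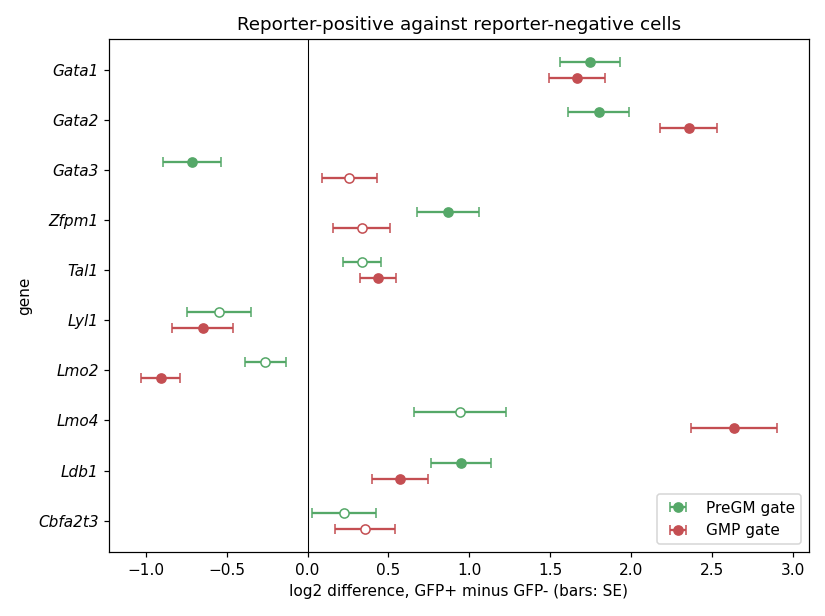
Log2 difference of reporter-positive minus reporter-negative cells (x axis) for each of the 10 genes (y axis) in the PreGM gate (green) and the GMP gate (red), with SE as bars and filled points for differences called at an adjusted p under 0.05. Gata1 and Gata2 rose in both gates, and Lmo4 rose by 2.64 in GMP against a difference of 0.94 in PreGM.

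Put side by side, the reporter comparison in PreGM called 5 of the 10 genes, where 2.05% of all genes were called: Gata1, Gata2, Zfpm1 and Ldb1 rose and Gata3 fell. The count includes Gata1, whose call tests the sort itself. The median difference of the 10 was 0.60 and that of all genes 0.04. The other 5 were not called (adjusted p 0.105 to 0.805). Tal1 differed by 0.34, Lmo4 by 0.94, Lyl1 by -0.55, Lmo2 by -0.26 and Cbfa2t3 by 0.23. When PreGM GFP- array 1 was left out 3 genes were called, as when PreGM GFP+ array 3 was, and with the PreGM arrays fitted alone or with array weights 2 were. The markers of monocytes fell beside these genes, in 5 of 5, and 4 of 9 neutrophil genes fell; their part was not tested.

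In GMP the reporter comparison called 7 of the 10, where 7.27% of all genes were called. Gata1, Gata2, Tal1, Lmo4 and Ldb1 rose, and Lyl1 and Lmo2 fell. Here too the count includes Gata1, whose call tests the sort itself. The median difference of the 10 was 0.40 and that of all genes 0.08. Without GMP GFP- array 1 or GMP GFP+ array 3, 4 were called. Beside this, 6 of 9 neutrophil genes fell (mean log2 signal of the list 10.80 to 11.87 in GMP GFP- and 8.86 to 9.78 in GMP GFP+), as did 5 of 5 monocyte genes (8.65 to 9.67 and 6.50 to 6.85); their part was not tested. The PreGM and GMP comparisons share no array. Between them only Lmo4 differed by test (1 of 10, against 0.702% of all genes), and the other 9 had adjusted p from 0.0845 to 0.977.

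**Figure D3:**
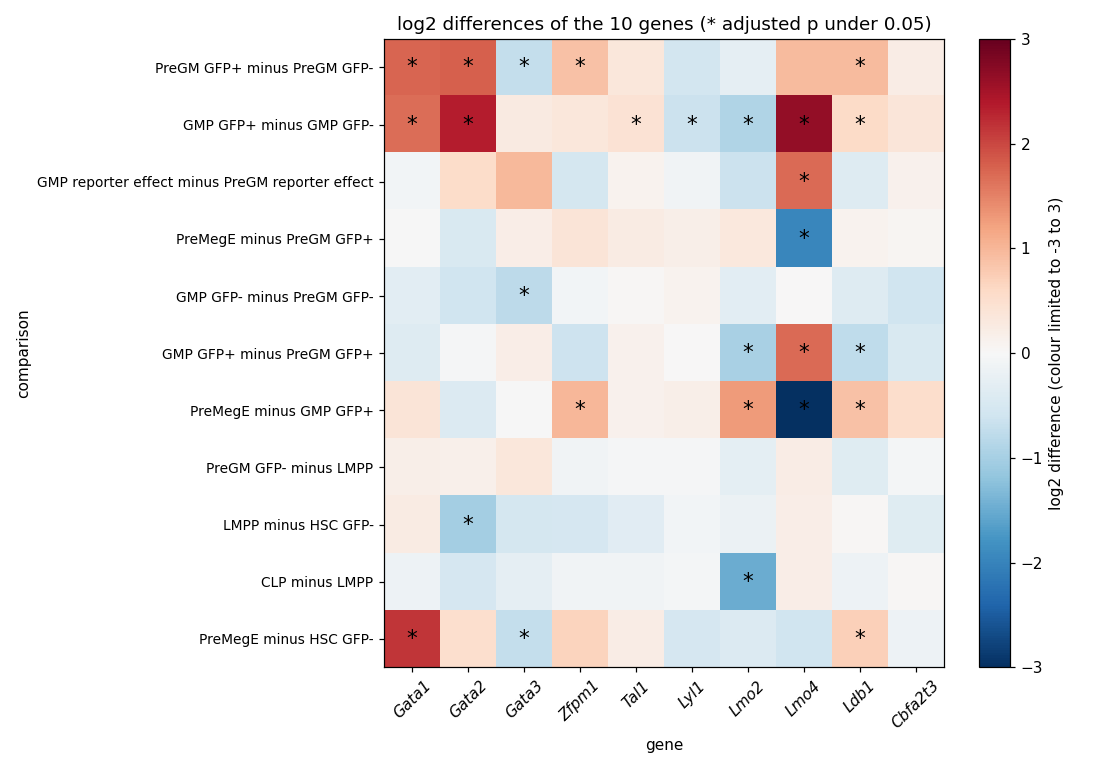
Log2 differences (colour, limited to -3 to 3) of the 10 genes (columns) in 11 comparisons (rows), with an asterisk where the adjusted p was under 0.05. Most calls lie in the 2 reporter comparisons and in PreMegE against GMP GFP+, and Lmo4 holds the darkest cells.

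The 3 populations with high Gata1 were compared with each other, and these comparisons share arrays. PreMegE and PreGM GFP+, set apart by CD150 in the gate, differed in 1 of the 10 genes, Lmo4, where 0.0652% of all genes were called, or 13 genes in all. GMP GFP+ against PreGM GFP+ called 3 (1.02% of all genes): Lmo4 was higher and Lmo2 and Ldb1 were lower. PreMegE against GMP GFP+ called 4 (1.72%): Zfpm1, Lmo2 and Ldb1 were higher and Lmo4 was lower. Gata1 and Gata2 themselves were called in none of the 3 comparisons, with Gata2 at -0.45, -0.03 and -0.42 and Gata1 at -0.01, -0.40 and 0.39. Without GMP GFP+ array 1 the Gata2 difference of PreMegE and GMP GFP+ was called (-0.69, adjusted p = 0.038).

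The remaining comparisons run between stem cells, LMPP, CLP and the first myeloid or PreMegE stages. LMPP against HSC GFP- called Gata2 alone (2.32% of all genes were called). Without HSC GFP- array 1, Gata3 was called too (-0.74, adjusted p = 0.0196). PreGM GFP- against LMPP called 0 of 10 by limma (0.873% of all genes), with 2 at an unadjusted p under 0.05, Lmo2 and Ldb1. GMP GFP- against PreGM GFP- called Gata3 (1.39% of all genes), and CLP against LMPP called Lmo2 (1.57%). Beside the fall of Lmo2, 5 of 6 B cell genes (mean log2 signal of the list 7.76 to 9.19 in CLP and 6.04 to 6.89 in LMPP) and 3 of 5 monocyte genes rose. Beside that of Gata3 in GMP GFP-, 6 of 9 neutrophil genes rose (10.80 to 11.87 against 8.93 to 9.54 in PreGM GFP-) and 1 of 5 monocyte genes fell. Beside that of Gata2 in LMPP, 2 of 9 neutrophil and 2 of 5 monocyte genes rose. The part of these markers was not tested. PreMegE against HSC GFP-, the latter sorted for lack of the Gata1 reporter, called Gata1 and Ldb1 higher and Gata3 lower (3.18% of all genes). Beside this, 5 of 9 neutrophil genes rose and 1 fell, and their mean log2 signal was 8.76 to 9.13 in PreMegE arrays and 6.48 to 7.0 in HSC GFP-, with the late neutrophil gene S100a8 higher by 5.30 (SE 0.62, adjusted p = 6.59e-06). The part of that signal in the 3 calls was not tested.

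Genes known to be driven by GATA factors are given here from lists, chosen with earlier results of these data known. In PreGM GFP+ against PreGM GFP-, 6 of 11 erythroid genes rose (median of the list 1.42, of all genes 0.04) and 5 were not called. The largest were the carbonic anhydrase gene Car1 by 5.54, the water channel gene Aqp1 by 2.37, Icam4 by 1.88 and Ermap by 1.73. Of 8 megakaryocyte genes 3 rose, the thrombin receptor gene F2r by 1.75 and the platelet glycoprotein genes Gp5 by 1.53 and Itga2b by 1.13. Of 11 mast cell and basophil genes 5 rose (median 1.10), led by the IgE receptor genes Ms4a2 by 3.72 and Fcer1a by 3.45. Of 7 eosinophil genes 1, Siglecf, rose by 0.55.

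In GMP GFP+ against GMP GFP-, 9 of 11 mast cell and basophil genes rose (median 2.90, all genes 0.08), with Fcer1a by 6.30, the granzyme gene Gzmb by 5.56 and the monoamine transporter gene Slc18a2 by 3.96. All 7 eosinophil genes rose (median 3.34), among them the granule protein genes Prg2 by 6.25 and Epx by 3.34. Erythroid genes rose in 7 of 11 (median 0.56), with Car1 by 4.65 and Car2 by 2.20, and megakaryocyte genes in 2 of 8, Itga2b by 1.44 and F2r by 0.52. The means of Fcer1a, Gzmb, Ms4a2, Car1, Prg2 and Epx lay below the median signal in PreGM GFP- and GMP GFP-, so that these differences are not exact. List genes also moved where the reporter did not differ. In PreGM GFP- against LMPP, which called 0 of the 10 members, 4 of 11 mast cell and basophil genes rose and 7 were not called (median -0.02). These were Cpa3 by 2.83, Mcpt8 by 2.04, Slc18a2 by 1.42 and Hdc by 1.03. In GMP GFP- against PreGM GFP-, Hdc rose by 2.36 and Slc18a2 fell by 1.85.

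**Figure D4:**
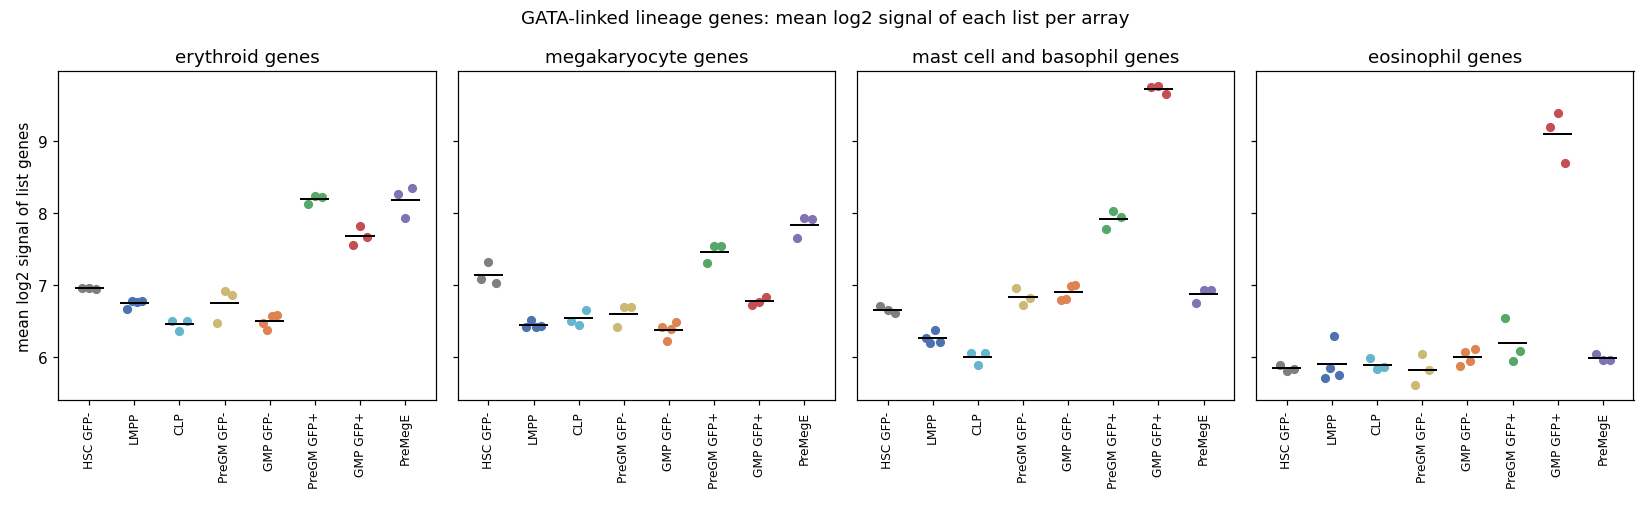
Mean log2 signal (y axis) of 11 erythroid, 8 megakaryocyte, 11 mast cell and basophil and 7 eosinophil genes in each array (points) of the 8 groups (x axis), with group means as bars. Mast cell and eosinophil genes peaked in GMP GFP+, at 9.65 to 9.77 and 8.69 to 9.39, and erythroid and megakaryocyte genes were higher in PreGM GFP+ and PreMegE than in GMP GFP+.

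The list levels place the Lmo2 and Lmo4 values beside the lineage genes of the same arrays. In GMP GFP+, where Lmo4 was highest and Lmo2 low, mast cell and basophil genes had a mean log2 signal of 9.65 to 9.77, against 7.77 to 8.02 in PreGM GFP+ and 6.75 to 6.93 in PreMegE. Eosinophil genes had 8.69 to 9.39 there and 5.95 to 6.53 and 5.96 to 6.03 in the other 2. Megakaryocyte genes ran the other way, at 6.72 to 6.83 in GMP GFP+, 7.30 to 7.54 in PreGM GFP+ and 7.66 to 7.93 in PreMegE. The part of these lineages in the Lmo2 and Lmo4 differences was not tested.

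Of the 9 factors that work beside GATA proteins, PreGM GFP+ called 2 higher than PreGM GFP-, the erythroid factor gene Klf1 by 1.25 and the repressor gene Gfi1b by 1.10. GMP GFP+ called 3 higher than GMP GFP-, Gfi1b by 1.10, Runx1 by 1.06 and Klf1 by 0.87, and 1 lower, the myeloid factor gene Spi1 by 1.12. Mean Klf1 lay below the median signal in PreGM GFP- (6.267) and GMP GFP- (6.331), so that its differences are not exact. In PreGM the Runx1 difference was -0.44 (adjusted p = 0.375), and the reporter differences of the gates differed by 1.5 (SE 0.25, adjusted p = 0.00242). The Spi1 difference in PreGM was -1.13 (adjusted p = 0.0801), and for Spi1 the gates were not shown to differ (0.02, adjusted p = 0.997). Of all genes 2.05% were called in PreGM and 7.27% in GMP.

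General components of the complexes are read against the 7.27% of all genes called in GMP. Among 11 further partners of Tal1, LMO proteins and Ldb1, GMP GFP+ called the Ldb1-binding gene Ssbp2 higher by 0.88 and Lmo1 lower than GMP GFP- (-0.61), and 9 were not called. Mean Lmo1 was 6.295 in GMP GFP- and 5.684 in GMP GFP+, both below the median signal, so that its difference is not exact. Of 10 subunit genes of the NuRD repressor, which Zfpm1 recruits, Mta3 rose by 0.94 and Rbbp7 fell by 0.51 in that comparison, and Rbbp7 fell in PreGM by 0.50. Of 9 ETO family and other corepressor genes Hdac2 fell in GMP GFP+ by 0.50, and the other 8 were not called there.

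Among 5 other GATA family and FOG genes, Trps1, an atypical GATA protein that represses, was called in the F test and the other 4 were not. PreGM GFP- arrays had a mean of 9.08 ± 0.75 (SD, n = 3), and PreGM GFP+ arrays one below the median signal, 6.30 ± 0.20 (SD, n = 3). With the reporter Trps1 thus fell by 2.78 (SE 0.43, adjusted p = 0.000349). In GMP it was 8.51 ± 0.36 (SD, n = 4) without and 8.56 ± 0.38 (SD, n = 3) with the reporter, and the difference between the gates was called (2.83, SE 0.59, adjusted p = 0.0184). PreMegE had 5.70 ± 1.02 (SD, n = 3).

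Over the 8 group means, which share arrays and normalization, Gata1 correlated with Gata2 (r = 0.85) and opposed Lyl1 (r = -0.95), and Zfpm1 went with Ldb1 (r = 0.90) and Gata2 with Tal1 (r = 0.90). Lmo2 and Lmo4 had r = -0.66, and Gata3 stayed within 0.57 of 0 with every other member. Among 2455 other genes whose group means spanned at least 1 log2 unit, those most like Gata1 over these 8 points were Car1 (r = 0.994), Mylk3 (0.991), Klf1 (0.991) and the Kell blood group gene Kel (0.986). For Gata2 they were Acss2 (0.99), Galnt6 (0.98), Ell2 (0.98) and the complement regulator gene Cd55 (0.98). Nearest to Zfpm1 were Nckap1 (0.998), Tgfbr3 (0.985), Nol4l (0.98) and Cyth3 (0.98), and to Ldb1 the urea transporter gene Slc14a1 (0.97), Ddah2 (0.96), Sh3glb1 (0.96) and Aqp9 (0.94).

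The likest to Lmo4 were the ribonuclease gene Rnase12 (r = 0.97), Lpcat2 (0.95), Kcne3 (0.95) and Atp8a2 (0.94), and to Lmo2 Ifitm3 (0.98), Bin2 (0.97), Nme4 (0.97) and Plekho2 (0.90). Tal1 was nearest to Angptl1, Pafah2, Pfkfb2 and Abhd18 (r 0.94 to 0.95), and Lyl1 to Fkbp1a, Kbtbd7, Arhgef6 and Elmo1 (0.93 to 0.95). Cbfa2t3 was nearest to Selenow, Foxn3, Gab1 and Nrip1 (0.91 to 0.95), and Gata3 to Avl9, Plod2, Rbpms and Taf1a (0.89 to 0.94). With 8 points and this many candidates, high values of r are a description of these groups.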

How the data were processed

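Mouse Gene 1.1 ST arrays were hybridised with biotin-labelled cRNA, per the labels. The authors deposited log2 signals of probe sets. RMA and oligo are named, without versions, in the submitters' processing notes, and base 2 was taken from the range of the values. No genome build is given in the sources used here. Of 35556 probe sets, 21789 named 1 gene in the annotation of the 1.0 ST version of the array, and those naming several (1621) or none (12146) were left out. For genes with several, the probe set with the highest mean was taken, leaving 19938 genes. Limma 3.58.1 (R 4.3.3) fitted 1 coefficient for each of 8 groups to all 26 arrays, with moderated tests and Benjamini-Hochberg adjustment over all genes and a threshold of 0.05. The method was tested on simulated data. Alternatives were a replicate block, groups fitted alone, median centring, quantile normalization, the mean of probe sets, a filter on low signal, array weights (whose estimation stopped before convergence), a trended and robust variance prior and leaving out each array. All 10 members are named; list genes are at most 4 per list and comparison, the called ones with the largest differences, and like genes the 4 with the highest r. Members and lists were chosen with earlier results of these data known. The number of arrays limits the precision.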

Additional observations from a re-analysis of the deposited data

Results flagged for a closer look

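The reporter effect on Lmo4 was larger in GMP than in PreGM by 1.69 log2 units in a test of that difference, as described above. In groups of 4 arrays, where 20 sets of values of these genes were examined and chance sets apart about 1 in 20, 2 arrays lay far from the rest of their group. Gata3 was 6.11 in GMP GFP- array 1 against 5.90 to 5.92 in the other 3, all below the median signal. Zfpm1 was 7.58 in GMP GFP- array 3, against 7.13 to 7.2 in the other 3, at the critical value (0.829) of the test.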

How the results depend on the processing

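Of 27 member differences called, 12 kept their call under every alternative run, 15 lost it under 1 or more, and 0 changed direction. The number of the 10 genes called moved by over 1.5 times as follows. In the PreGM reporter comparison it was 2 with array weights and 2 with the groups fitted alone (3 to 4 with single arrays left out), against 5. In GMP it was 4 with a trended, robust variance prior (4 to 6 with single arrays left out), against 7. For the difference between the gates, where Lmo4 was the 1 call, it was 0 with the replicate block, with centred arrays and with array weights (0 to 1 with single arrays left out). For PreMegE against PreGM GFP+ it was 0 with the groups fitted alone, against 1. For GMP GFP- against PreGM GFP- it was 0 with array weights and 0 with the groups alone (0 to 1 with single arrays left out), and for GMP GFP+ against PreGM GFP+ 1 with the groups alone (2 without any 1 array), against 3. For LMPP against HSC GFP- it was 2 with array weights (1 to 2 with single arrays left out), and for PreMegE against HSC GFP- 1 to 2 with single arrays left out, against 3. The F test called 9 to 10 with single arrays left out. Fits of the compared groups alone and of 1 array less have fewer samples; the cause of the other changes was not tested.

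By the rule used, replicate numbers were not taken to pair the arrays: same-numbered arrays of compared groups had correlated deviations between -0.26 and 0.33, and in 0 of 10 comparisons were all 3 pairs over 0.1. PreGM GFP- and LMPP came nearest (0.22, 0.33 and 0.0996). Of 24 arrays numbered 1 to 3, 13 correlated best, outside their group, with an array of their own number. This is a hint from the data and not from the design, and the number due to chance was not computed. The replicate block changed the Lmo4 call above (adjusted p = 0.0747) and added Zfpm1 in PreMegE against HSC GFP- (0.66, adjusted p = 0.0442). Of all genes, centring left 32.9% of calls higher with the reporter in PreGM (44.4% without centring) and 23.4% in GMP (44.3%), with the median of all genes moving to -0.05 from 0.04 and 0.08. It left 61.0% against 45.4% in PreGM GFP- against LMPP, and 12.5% against 23.1% in PreMegE against PreGM GFP+. The count of all genes called moved by over 1.5 times in 11 of 12 comparisons, for example from 408 to 213 in PreGM and from 1449 to 2799 in GMP with array weights. Signal near the median limits Gata3 most: its mean lay under the median of all values in 6 of 8 groups.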
